A study of Caenorhabditis elegans with 2 samples.

Results

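Small nucleolar RNA (snoRNA) genes of Caenorhabditis elegans were examined as binding places of XND-1. In the germline this chromatin factor is known to sit mainly on autosomes and to govern where crossovers form on X. All 346 genes annotated as snoRNA in WBcel235 (ce11), annotation release 115, were taken, of 46890 annotated genes on the 6 nuclear chromosomes, and each locus was the gene body with 200 bp on either side. The genes were 54 to 344 bp long, with a median of 130 bp. The series has 1 group with 2 biological replicates of chromatin immunoprecipitation sequencing (ChIP-seq). Worms of strain QP0661, a stable transgenic line with XND-1 fused at its C terminus to GFP and FLAG, were collected whole as young adult hermaphrodites, 50 h after synchronization by starvation at L1, and anti-GFP antibody was used on sonicated chromatin. Germline and somatic nuclei were thus mixed, and no list from worms without the tag was analysed here.

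The snoRNAs guide small ribonucleoproteins (snoRNPs) to other RNAs in the nucleolus, mainly ribosomal RNA. Box C/D snoRNAs direct 2′-O-methylation by fibrillarin and box H/ACA snoRNAs direct pseudouridylation by dyskerin. In animals many snoRNAs lie in introns of protein-coding genes and are trimmed from the spliced intron, while others are transcribed from promoters of their own.

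A locus was called bound when at least 1 peak summit of the IDR-thresholded list lay inside it. That list, of 1841 peaks, was derived by the authors from both replicates with the irreproducible discovery rate (IDR). A peak in it need not be strong in each replicate, and counts for each replicate are given below. Each peak carries a score, the signalValue of the authors' caller, which has no named unit and is used here to order and describe peaks within a list; scores of different lists are given side by side and are not on a shared scale. Of the 346 snoRNA loci, 59 were bound, a share of 17.1% (exact Clopper-Pearson 95% interval 13.2% to 21.4%). The same rule called 3.49% of all genes bound, and 1.13% of autosomal and 0.0299% of X windows of 530 bp, the median width of a locus. All genes include 15363 piRNA genes of median length 21 bp, of which 0.143% were bound. When each replicate was represented by its own 1841 strongest peaks, 57 loci were bound in replicate 1 (16.5%, where 3.44% of all genes were) and 56 in replicate 2 (16.2%, where 3.43% of all genes were).

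The sequences that recurred next to the bound genes are shown first, because the results below turn on them. The 120 bases before the gene, on the strand of the gene and read 5′ to 3′, are given for 8 of the 9 genes with the highest scores; Y37E3.20, which ranked between F54F11.6 and K07C10.2, is not shown. Sequences are from the RefSeq assembly of WBcel235. Capitals mark a PSE-like element, defined as CGNAACNCG, then 5 bases, then TGTC, in which N is any base. The proximal sequence element (PSE) is known as the promoter element of small nuclear RNA (snRNA) genes.
T06D8.11, chrII:11224062-11224181, plus strand: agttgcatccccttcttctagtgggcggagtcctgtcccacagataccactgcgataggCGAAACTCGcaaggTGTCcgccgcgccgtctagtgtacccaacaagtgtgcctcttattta
C08D8.3, chrV:8348988-8349107, plus strand: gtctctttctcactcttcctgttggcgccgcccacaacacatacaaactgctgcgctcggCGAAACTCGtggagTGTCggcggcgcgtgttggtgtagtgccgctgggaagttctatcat
ZK994.7, chrV:8500459-8500578, plus strand: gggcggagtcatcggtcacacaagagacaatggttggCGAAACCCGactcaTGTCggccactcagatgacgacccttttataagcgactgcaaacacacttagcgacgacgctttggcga
F09G2.14, chrV:7196581-7196700, minus strand: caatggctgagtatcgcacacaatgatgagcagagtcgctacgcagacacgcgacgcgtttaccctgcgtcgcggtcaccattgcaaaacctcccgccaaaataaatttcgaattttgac
F54F11.6, chrII:13521181-13521300, plus strand: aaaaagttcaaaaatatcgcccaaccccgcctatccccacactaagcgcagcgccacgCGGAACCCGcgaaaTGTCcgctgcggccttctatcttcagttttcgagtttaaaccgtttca
K07C10.2, chrII:11167097-11167216, plus strand: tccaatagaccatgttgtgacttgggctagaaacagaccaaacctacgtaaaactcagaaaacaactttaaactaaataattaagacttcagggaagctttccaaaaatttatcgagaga
F01D5.12, chrII:14018442-14018561, minus strand: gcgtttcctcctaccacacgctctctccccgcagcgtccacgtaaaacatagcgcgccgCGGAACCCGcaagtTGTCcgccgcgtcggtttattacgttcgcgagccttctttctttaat
C05H8.3, chrIII:5653969-5654088, minus strand: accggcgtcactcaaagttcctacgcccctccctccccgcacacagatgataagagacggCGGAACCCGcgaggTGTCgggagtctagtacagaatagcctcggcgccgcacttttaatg

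In 6 of these 8 genes the PSE-like element lay in the bases shown, and in F09G2.14 and K07C10.2 it did not. A different element preceded other bound genes. It resembles the internal promoter of tRNA genes, whose A and B boxes are known to recruit RNA polymerase III, and was defined as TGG, then 40 to 75 bases, then GTTCNANNC. The next 4 sequences are of 4 of the 5 highest-scoring bound genes that carried it, with both of its ends in capitals. The highest, Y23H5B.10, is not shown. Where several TGG fitted, the first was marked, and in F55A11.10 a later TGG fits the definition too. These genes were chosen after their sequences were seen.
Y75B12B.12, chrV:15191094-15191213, minus strand: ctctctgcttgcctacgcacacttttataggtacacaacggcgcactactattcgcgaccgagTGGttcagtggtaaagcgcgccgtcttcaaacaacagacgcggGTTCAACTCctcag
W03C9.9, chrII:11960778-11960897, plus strand: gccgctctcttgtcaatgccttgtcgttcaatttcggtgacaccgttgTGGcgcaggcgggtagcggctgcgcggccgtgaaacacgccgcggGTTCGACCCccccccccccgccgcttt
C51F7.3, chrV:12303588-12303707, plus strand: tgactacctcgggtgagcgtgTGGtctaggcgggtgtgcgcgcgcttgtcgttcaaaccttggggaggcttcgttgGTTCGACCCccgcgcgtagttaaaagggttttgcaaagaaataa
F55A11.10, chrV:11782872-11782991, plus strand: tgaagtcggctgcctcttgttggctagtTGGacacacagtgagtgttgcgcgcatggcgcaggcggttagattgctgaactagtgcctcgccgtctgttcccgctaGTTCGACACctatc

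The snoRNA itself is shown for C08D8.3, which has the highest score among the genes called box C/D. Capitals mark the C box near the 5′ end and the D box near the 3′ end.
C08D8.3, chrV:8349108-8349187, plus strand: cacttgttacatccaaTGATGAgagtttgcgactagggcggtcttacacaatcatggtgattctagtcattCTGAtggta

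The 59 bound loci were spread over all 5 autosomes. Chromosome I had 13 of 74 loci bound, chromosome II had 12 of 71, chromosome III had 5 of 54, chromosome IV had 13 of 59 and chromosome V had 16 of 55. The exact 95% interval ran from 3.08% to 20.3% on chromosome III and from 17.6% to 42.9% on chromosome V, so these extremes overlapped. The loci held 63 distinct IDR-thresholded summits, 3.42% of the list. In 5 loci there were 2 summits, and 1 summit lay in the loci of both C51F7.3 and C51F7.4. Scores of these 63 summits ran from 68.5 to 348 with a median of 110, against 65.6 to 2548 with a median of 128 over the whole list. None was among the 300 strongest peaks, and the best ranked 318th.

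Other small RNA genes differed in the share bound under the same locus rule. On autosomes, 59 of 313 snoRNA loci were bound (18.8%, exact 95% interval 14.7% to 23.6%). The snRNA genes had 39 of 126 bound (31%, 23% to 39.8%), and these intervals overlap. The tRNA genes had 28 of 336 bound (8.33%, 5.61% to 11.8%), the miRNA genes 6 of 187 (3.21%, 1.19% to 6.85%) and the piRNA genes 22 of 15201 (0.145%). The intervals of tRNA and miRNA genes lie below that of snoRNA genes. Protein-coding genes, which are longer (median 1964 bp), had 1295 of 17242 bound (7.51%). No snoRNA locus overlapped an annotated tRNA or snRNA gene.

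The summits sat immediately upstream of the snoRNA 5′ end. Of the 64 pairs of a locus and a summit, 37 had the summit in the 100 bp before the gene and 3 between 101 and 200 bp before it. Another 12 lay inside the gene, 11 in the 100 bp after it and 1 between 101 and 200 bp after it. The median position was −14.5 bp from the 5′ end, with quartiles of −48 and 34.25 bp. The window of 100 bp before the gene thus held more summits than the rest of the locus. At the bound loci the strongest summit of the replicate 1 list had a median position of −23 bp, and 38 of 59 lay in those 100 bp. The strongest summit of the replicate 2 list had a median of −18 bp, and 35 of 58 lay there. Among the 95 loci with a summit in the pooled list alone, 28 had their strongest summit in those 100 bp and the median was 36 bp.

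**Figure D1:**
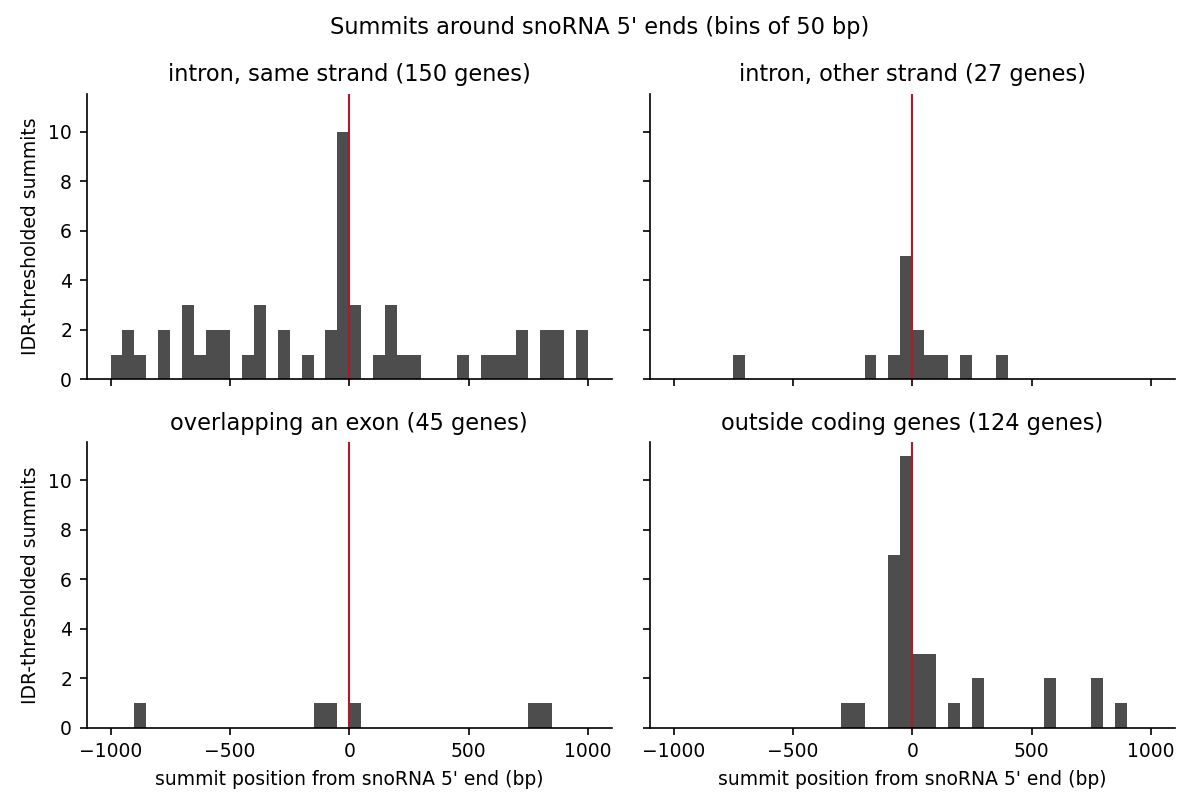
Number of IDR-thresholded summits (y axis, bins of 50 bp) by position from the annotated snoRNA 5′ end (x axis, bp, negative is upstream), in 4 panels by the place of the gene. A peak stands just upstream of position 0 for genes in introns on either strand and for genes outside protein-coding genes; genes overlapping an exon had 3 summits within their loci.

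Most summits lay outside the promoter windows of protein-coding genes. Promoter windows of protein-coding transcripts, 500 bp upstream to 200 bp downstream of a 5′ end, held 19 of the 63 summits, and 44 lay in none. The median distance to the nearest protein-coding 5′ end was 1102 bp, and 32 summits were over 1000 bp away, up to 16225 bp. Of the 19, some lay in windows of well-known neighbours. The summit at M03D4.78 was in the window of zen-4, a kinesin of cytokinesis, and that at C36E8.11 in the window of tif-1A, an RNA polymerase I factor. At such loci the snoRNA and the neighbour cannot be told apart.

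The annotation placed 150 genes inside an intron of a protein-coding gene on the same strand, 27 inside an intron on the other strand and 45 over an exon, and 124 lay outside protein-coding genes. Of genes in same-strand introns, the usual arrangement of a hosted snoRNA, 19 of 150 were bound (12.7%, exact 95% interval 7.8% to 19.1%). Of genes outside, 26 of 124 were bound (21%, 14.2% to 29.2%). The intervals overlap, and the difference was not tested because loci are not replicates. On autosomes alone the shares were 19 of 146 (13%, 8.02% to 19.6%) and 26 of 101 (25.7%, 17.6% to 35.4%), which still overlap. The replicates kept that order on autosomes, with 13.7% and 22.8% in replicate 1 and 14.4% and 23.8% in replicate 2. In the whole pooled list, which holds 24467 peaks, the autosomal shares were 44.5% and 50.5%, and over all chromosomes they were 44% and 43.5%.

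The 27 genes in introns of the other strand, which cannot be trimmed from the host transcript, had 11 bound (40.7%, exact 95% interval 22.4% to 61.2%). Replicate 1 gave 10 and replicate 2 gave 8. The lower bound lies above the interval of same-strand introns in the IDR-thresholded list. In each replicate list the intervals overlap, 19.4% to 57.6% against 8.34% to 19.8% in replicate 1 and 13.8% to 50.2% against 8.88% to 20.6% in replicate 2. Of the 45 genes over an exon, 3 were bound (6.67%, 1.4% to 18.3%).

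**Figure D2:**
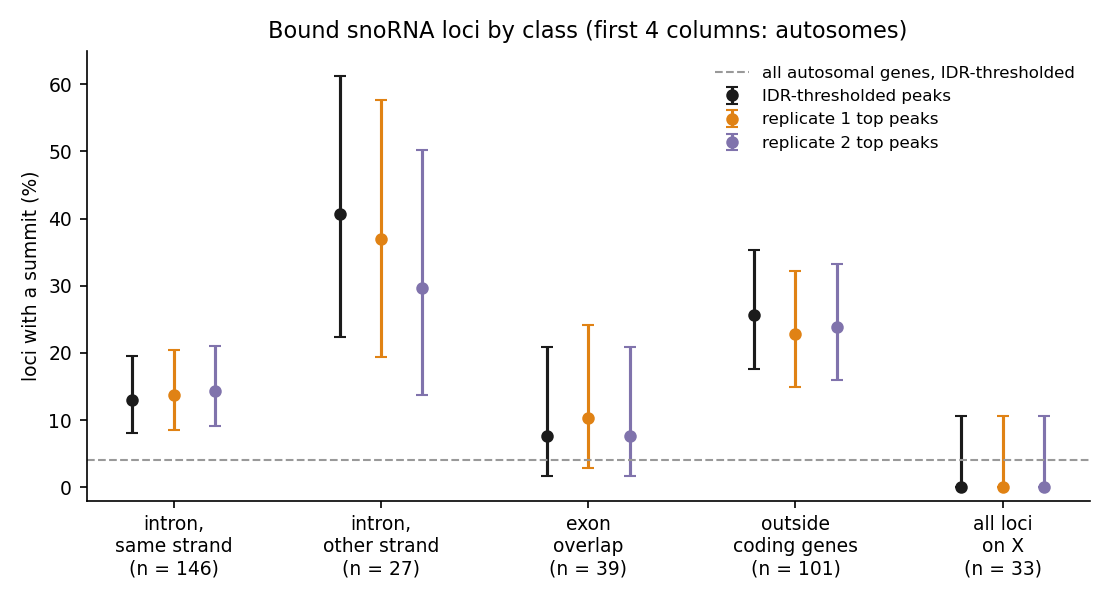
Share of snoRNA loci with a summit (y axis, percent) by place of the gene on autosomes and for all loci on X, with exact 95% intervals as bars. Black points are the IDR-thresholded list, orange and purple the 1841 strongest peaks of replicates 1 and 2, and the dashed line is the 3.99% of all autosomal genes; the 33 loci on X are at 0 in each list.

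Binding at the snoRNA and at the start of its host were counted by different windows, and the same summit could count for both. Of the 22 summits in loci in same-strand introns, 12 lay in the 100 bp before the snoRNA and 5 in the promoter window of the host. Between 1000 and 201 bp upstream, outside the loci, this class had 14 further distinct summits, and 13 of them were in the promoter window of a host. The 19 bound genes had 19 different hosts, of which 5 had a bound promoter (C33A12.3, F55A11.6, cfim-2, gpa-1 and pcyt-2.1). For C33A12.3, F55A11.6, cfim-2 and pcyt-2.1 a summit in the snoRNA locus itself lay in the host's promoter window. At these the snoRNA and the host cannot be told apart. Over all 131 hosts of this class, 28 had a bound promoter, where 6.68% of all protein-coding genes had one.

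Ribosomal protein genes are a known family of snoRNA hosts. Here they were recognised only by a name starting with rpl-, rps- or rla-. A ribosomal protein gene under another name would be among the other hosts. By that rule they hosted 19 of the snoRNA genes in 13 hosts, and none of these loci was bound. The 3 counts that a count of 0 allows are 15.8% of 19, and the exact 95% interval of 0 to 17.6% overlaps that of other hosts and holds the 3.99% of all autosomal genes. In the pooled list 3 of the 19 had a summit. At their own promoter windows 8 of the 13 hosts had an IDR-thresholded summit (rpl-15, rpl-24.1, rpl-6, rpl-7A, rps-12, rps-13, rps-23 and rps-29). Translation factor genes, with names starting with eif-, eef- or iff-, hosted 3 further loci. None of these was bound, and 2 had a summit in the pooled list. All 19 bound loci in same-strand introns were among the 128 with other hosts (14.8%, exact 95% interval 9.18% to 22.2%).

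The strongest of all was T06D8.11, in an intron of plpr-1, with a score of 348, and 175 and 170 in the lists of replicates 1 and 2. C08D8.3, in an intron of C08D8.1, scored 293, with 152 and 137 in the replicates. ZK994.7, in an intron of the peroxidasin gene pxn-1, scored 291, with 139 and 152. Both replicates had a summit at each of these, and all 3 genes carried the PSE-like element printed above. F09G2.14 scored 279, with 133 and 145, and its summit was also in the promoter window of F09G2.2. F54F11.6, in an intron of the chemoreceptor gene sre-45, scored 246, with 154 and 98.4. K07C10.2, outside protein-coding genes, scored 234, with 122 and 112. The strongest summit of F54F11.6 lay 185 bp after the 5′ end.

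Most of the next genes carried the PSE-like element too. Y37E3.20, in an intron of pcyt-2.1, a gene of phospholipid synthesis, scored 241, with 127 and 115. F01D5.12, in F01D5.10, scored 211, with 115 and 95.6. C05H8.3, in an intron of the calmodulin kinase kinase gene ckk-1 on the other strand, scored 211, with 106 in both replicates. All 3 carried it, and the summit of the first also lay in the promoter window of its host. C16D9.10 scored 209, with 101 and 106, and lies outside protein-coding genes. C16D9.11, in an intron of rol-3, a receptor tyrosine kinase gene, scored 197, with 93.8 and 107. Y41E3.464, in the Fanconi anaemia gene fcd-2 on the other strand, scored 203, with 87.8 and 119. This gene carried neither element, and its summit lay at −152 bp from the snoRNA 5′ end, in the promoter window of fcd-2.

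The other 8 of the 20 highest-scoring genes ran from 157 to 199. Among them Y74C9A.6, called box C/D, scored 163, with 76.7 and 86.3 in the replicates. F59C6.15 scored 158, with 71.7 and 82.2. Both lie outside protein-coding genes and carried the PSE-like element.

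The IDR-thresholded list was made from both replicates, so the values of each replicate at the bound loci describe them and are no separate check. Its lowest score was 65.6, and no unbound locus had a pooled score above 64. At these loci the list thus followed the pooled score. Of the 59 bound loci, all had a summit in the whole list of replicate 1 (22772 peaks) and 58 in that of replicate 2 (22364 peaks). The strongest IDR-thresholded summit was at a median of 12 bp from the nearest summit of replicate 1 and 7 bp from that of replicate 2. Across the 58 loci with a score in both, which share 2 libraries and are not replicates, Spearman's rho of the scores was 0.759. The bound loci had a summit among the 1841 strongest peaks of both replicates in 48 cases, and every one had it in at least 1. The exception in replicate 2 was C07A9.14, in an intron of the exchanger gene ncx-7 on the other strand. Its score of 172 came with 137 in replicate 1, and replicate 2 had no summit in the locus, the nearest being 316 bp from the IDR-thresholded one.

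**Figure D3:**
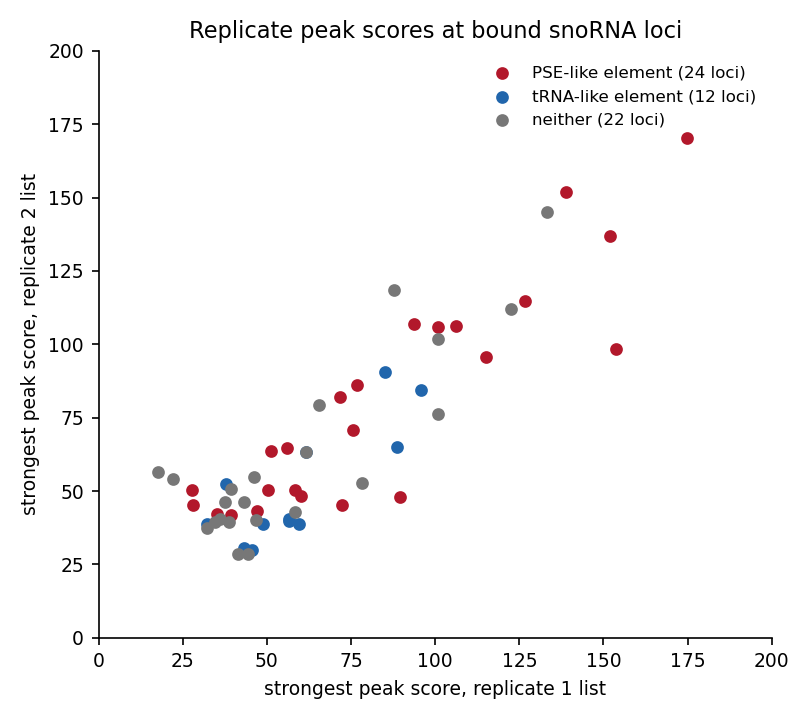
Score of the strongest peak in the locus in the replicate 2 list (y axis) against that in the replicate 1 list (x axis) for 58 bound snoRNA loci, coloured by upstream element. T06D8.11 is at the upper right, with 175 and 170.

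The PSE-like element was searched from 150 bases before to 50 bases after each snoRNA 5′ end. On the strand of the gene, 31 of 346 genes held it (8.96%), and none held it on the other strand. Among protein-coding genes 0.02% of windows of the same length held it, among snRNA genes 22.5%, and among windows of 200 bp over the whole genome, read on both strands, 0.101%. Its first base lay from −83 to −57 relative to the 5′ end, with a median of −62 and quartiles of −64 and −61. The letter at the first N was G in 22 genes and A in 9. The letters were chosen after the sequences at bound loci had been seen, so the shares that follow describe these loci and test nothing.

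Of the 31 genes with the PSE-like element, 25 were bound (80.6%, exact 95% interval 62.5% to 92.5%), 23 in replicate 1 and 24 in replicate 2. All 31 had a summit in the pooled list, where 27% of all genes had one. The bound share was 10 of 10 in same-strand introns, 5 of 6 in introns on the other strand and 10 of 15 outside protein-coding genes. Their scores ran from 71 to 348 with a median of 146, and their median score was 75.5 in the replicate 1 list and 67.7 in the replicate 2 list. The strongest summit was 49.5 bp downstream of the element's centre at the median, which puts it close to the 5′ end of the gene. The distances were spread from −38.5 to 317.5 bp, and 13 of the 25 were within 50 bp of the centre. In 14 of the 25 loci the strongest summit lay in the 100 bp before the gene. A summit in a coding promoter window was found at 5 of the 25 loci. The 6 unbound genes had pooled scores of 15.7 to 59.8.

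The tRNA-like element was held by 34 genes (9.83%), with the first base at a median of −61 and the last at a median of −4.5 relative to the 5′ end. Where several TGG fitted, the first was taken, and the element's first base and centre rest on that choice. Among protein-coding genes 0.541% of windows held it, among snRNA genes 7.75%, and among windows around the 5′ ends of tRNA genes 0.327%. The tRNA genes have a median length of 72 bp, and these windows ended 50 bases into the gene. That last share therefore cannot show whether tRNA genes hold the element. Among 200 bp windows of the genome on both strands 1.91% held it, and 3 snoRNA genes had a match on the other strand. No gene held both elements. On autosomes 12 of 31 such genes were bound (38.7%, exact 95% interval 21.8% to 57.8%), 12 in replicate 1 and 11 in replicate 2, and 29 of 31 had a summit in the pooled list. Scores of the bound ones ran from 71.2 to 182 with a median of 93.4. In all 12 the strongest summit was within 50 bp of the element's centre, and the median difference was −2.75 bp. At the median these summits lay over the element, and those of PSE-like genes lay downstream of theirs.

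**Figure D4:**
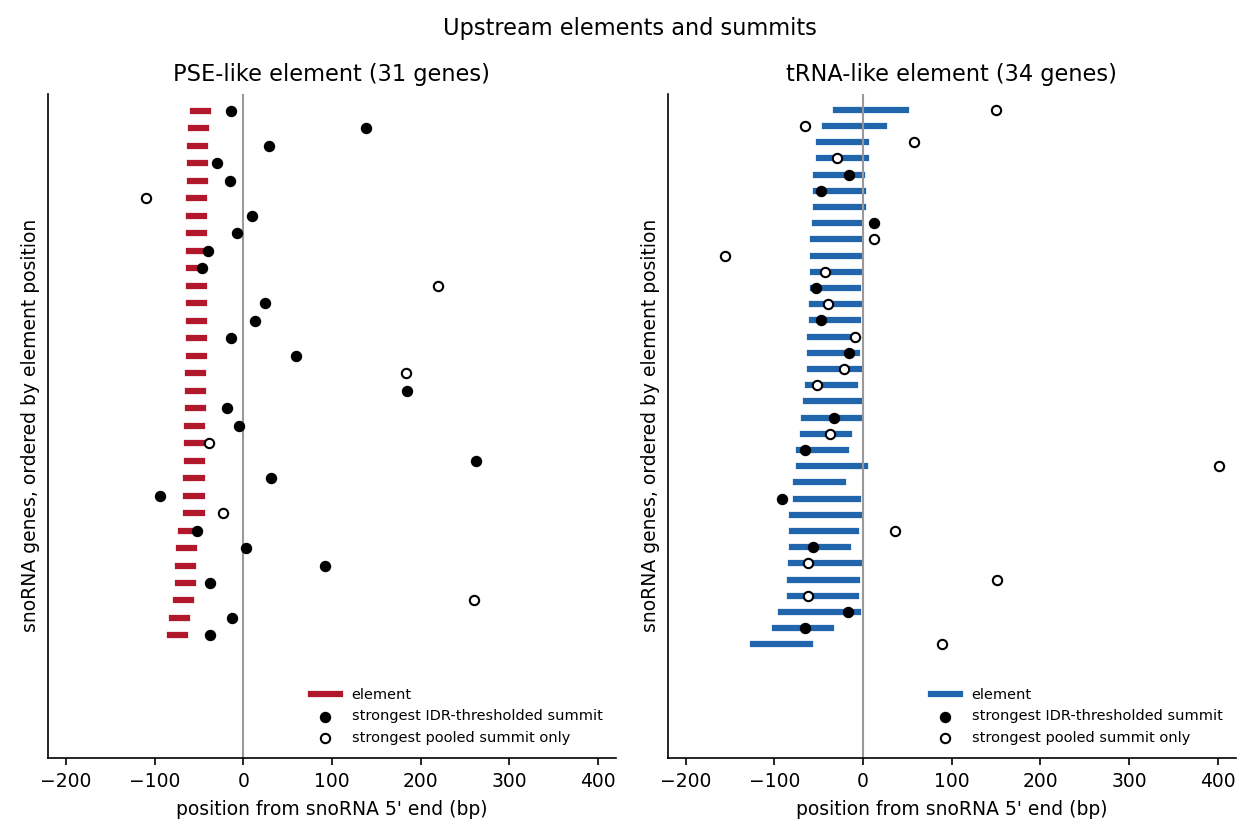
Each row is 1 snoRNA gene, and the x axis is the position from its annotated 5′ end in bp. Coloured bars are the PSE-like (left) or tRNA-like (right) element, filled circles the strongest IDR-thresholded summit and open circles the strongest pooled summit of genes with no IDR-thresholded one. The left bars begin at −83 to −57.

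The strongest carriers of the tRNA-like element had lower scores than those of the PSE-like element. Y23H5B.10 scored 182, with 95.9 and 84.4 in replicates 1 and 2. Y75B12B.12 scored 167, with 84.9 and 90.5. W03C9.9, called box C/D, scored 157, with 88.6 and 65.2. All 3 lie outside protein-coding genes and had their strongest summit between −65 and −48 bp from the 5′ end.

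Neither element was found at 251 autosomal genes, of which 22 were bound (8.76%, exact 95% interval 5.57% to 13%). In 10 of these 22 a summit lay in a promoter window of a protein-coding gene. Without either element, 6 of 121 autosomal genes in same-strand introns were bound (4.96%, 1.84% to 10.5%) and 10 of 76 outside (13.2%, 6.49% to 22.9%). The share of all autosomal genes was 3.99%, and these include 15201 piRNA genes of median length 21 bp, of which 0.145% were bound. Autosomal protein-coding genes, with a median length of 1964 bp, had 7.51% bound, inside each of these intervals. The strongest genes with neither element were F09G2.14 and K07C10.2, given above, then Y41E3.464. M03D4.78 followed with a score of 199, and 101 and 102 in replicates 1 and 2. C26C6.13 scored 175, with 101 and 76.3, and its summit lay 252 bp after the 5′ end, beyond the gene. That no match was found says only that these letters are not in the window searched.

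**Figure D5:**
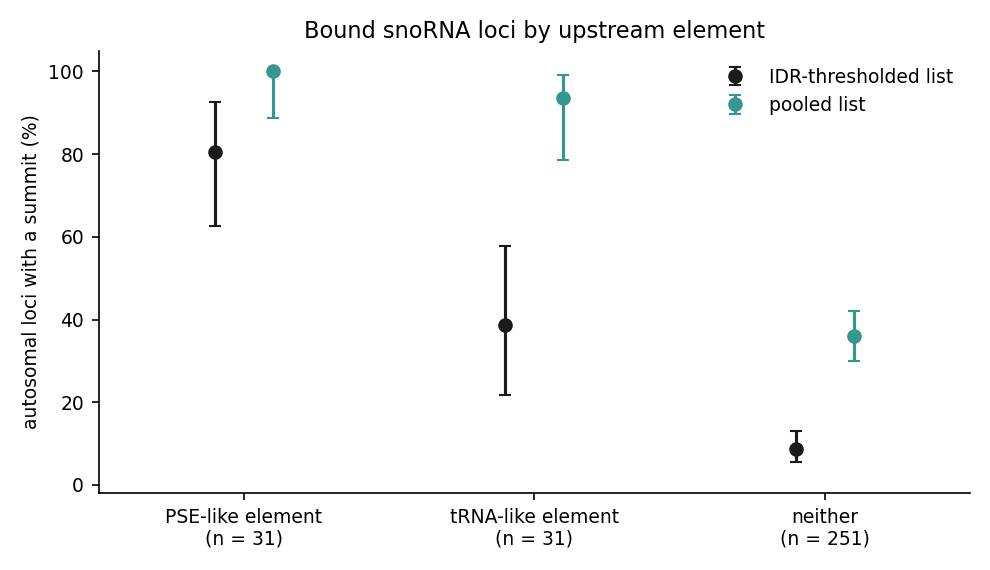
Share of autosomal snoRNA loci with a summit (y axis, percent, exact 95% intervals) by upstream element, in the IDR-thresholded list (black) and the pooled list (green). In the IDR-thresholded list 80.6% of genes with the PSE-like element, 38.7% with the tRNA-like element and 8.76% with neither had a summit.

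The PSE-like letters also occur at places that are not just before a snoRNA gene. The autosomes held 496 matches on either strand, and 42 had an IDR-thresholded summit within 100 bp of the centre, where 0.446% of autosomal windows of that width had one. Before a snoRNA gene 20 of 31 matches had one, before an snRNA gene 7 of 27, and at the remaining places 15 of 438. A pooled summit was there at 119 of the 496, with 25 of 31, 13 of 27 and 81 of 438 in the same order. Many of the 438 came as close pairs on opposite strands, such as those starting at 597061 and 597153 on chromosome I. A summit near such a pair could count for both matches, so the 438 are not all separate places. The letters were chosen after sequences at bound snoRNA loci were seen, so the higher share before snoRNA genes tests nothing. On X there were 125 matches, none before a snoRNA or snRNA gene and none with an IDR-thresholded summit, where 0.0113% of X windows had one, and 14 had a pooled one.

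X held 33 snoRNA genes and no bound one. The 3 counts that a count of 0 allows are 9.09% of 33, and the exact two-sided 95% interval, which is the wider bound, runs from 0 to 10.6%. It lies below the 14.7% to 23.6% of autosomal snoRNA loci. Neither replicate had a summit at an X locus among its 1841 strongest peaks. Over all genes the rule called 3.99% bound on autosomes and 0.0996% on X, so the absence at X snoRNA loci is close to what all genes of X show. The classes were unequally filled, since 23 of the 33 X genes lie outside protein-coding genes, and of these none was bound, against 26 of 101 on autosomes. No X gene carried the PSE-like element, and 3 carried the tRNA-like one (C53B7.8, T27A8.9 and Y59E1B.14).

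In the pooled list 4 of the 33 X loci had a summit (12.1%, exact 95% interval 3.4% to 28.2%), against 150 of 313 on autosomes (47.9%, 42.3% to 53.6%). T21F2.3, outside protein-coding genes, scored 38.8, with 16.4 and 19.1 in replicates 1 and 2. C53B7.8, with the tRNA-like element, scored 36.7, with 16.7 and 19.1. F54G2.4, in an intron of F54G2.1, scored 20.3, with 9.33 in replicate 1 and no summit in replicate 2.

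The lowest score of a bound locus was 68.5, at F38E11.14, and the loci just outside the IDR-thresholded list were close to it. ZK546.18, in an intron of the mediator gene mdt-4 and with the tRNA-like element, had a pooled score of 64, with 26 and 40.2 in the replicates. T23G11.12 over an exon of T23G11.11 had 63.8, with 39.6 and 24.1. F12F6.11, with the tRNA-like element, had 62.5, with 31.4 and 30.3. The other 2 of the 5 highest, C10C6.8 in catp-8 and K11C4.6 in the spectrin gene unc-70, had 61.9 and 61.2. In all, 95 loci had a pooled summit alone, with a median score of 26.3, and 192 loci had none.

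The box class could be read for few genes. Box C/D was called where TGATGA lay in the first 25 bases and CTGA in the last 20, and box H/ACA where ACA ended 3 bases before the 3′ end, within 1 base. This gave 15 box C/D and 75 box H/ACA genes and left 256 unclassed. Of the box C/D genes 8 were bound (53.3%, exact 95% interval 26.6% to 78.7%) and of the box H/ACA genes 6 (8%, 2.99% to 16.6%), with 8 and 8 box C/D and 7 and 8 box H/ACA genes in replicates 1 and 2. The intervals do not overlap, while 45 of the 256 unclassed genes were bound (17.6%, 13.1% to 22.8%). With 1 mismatch allowed in the C box, 16 of 44 genes were bound (36.4%, 22.4% to 52.2%). Among the 31 genes with the PSE-like element 5 were called box C/D, none H/ACA and 26 neither. Among those with the tRNA-like element 4 were called box C/D, 13 H/ACA and 17 neither. Genes with neither element gave 6, 62 and 213 in the same order.

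Protein-coding genes linked to snoRNAs or the nucleolus were examined at their own promoters. The 18 genes listed were for snoRNP proteins, their assembly factors, RNA polymerase I subunits and others linked to the nucleolus. Of these, 8 had an IDR-thresholded summit (44.4%, exact 95% interval 21.5% to 69.2%), where 6.68% of all protein-coding genes did. Of the 4 box C/D core genes, 3 had one. The methyltransferase gene fib-1 (fibrillarin) scored 120, with 72.8 and 42.3 in replicates 1 and 2. The scaffold gene nol-58 scored 172, with 94.7 and 77.1. The RNA-binding protein gene snu-13 scored 95.5, with 57.1 and 39.7. The fourth, nol-56, had a pooled score of 45.2 and no IDR-thresholded summit.

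Of the 4 H/ACA core genes, 2 were bound. The pseudouridine synthase gene dkc-1 (dyskerin) had the highest score of these 18 genes, 518, with 246 and 273 in the replicates. Y48A6B.3, for the NHP2 protein, scored 98.6, with 50.6 and 44.3. The others, garr-1 (GAR1) and nola-3 (NOP10), had pooled scores of 54.4 and 41.5. The helicase genes ruvb-1 and ruvb-2, which act in snoRNP assembly, scored 113 and 84.4. The RNA polymerase I and III subunit gene rpac-19 scored 151, with 74.1 and 76.5. The remaining genes, dao-5, nucl-1, ncl-1, rpoa-1, rpac-40 and rpoa-12, had pooled scores of 20.5 to 47.5, and rpoa-2 had no pooled summit.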

How the data were processed

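ChIP-seq of XND-1-GFP was done in 2 biological replicates of 1 group. Peaks were called for each replicate and on both pooled, with a control alignment, and the IDR-thresholded list was derived from these, per the deposited descriptions of the files. The aligner, the caller and the IDR cut-off are not given in the sources used here. Each deposited peak has a summit and a score, the signalValue, set by the authors' caller; lists hold no read counts, so depth is unknown and intervals cover only the number of loci. The ce11 lists were used, with the WBcel235 genome and annotation release 115.

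Summits were assigned to the gene body with 200 bp on either side. Genes were classed by the annotation alone. Shares have exact Clopper-Pearson 95% intervals, and no p-value was computed, since loci are not replicates. The members, gene lists and comparisons were chosen with earlier results of these data known, and both upstream elements after sequences at bound loci were seen. Named genes are the 20 bound snoRNA genes with the highest scores, the 3 X genes and the 5 unbound genes with the highest pooled scores, and the 18 snoRNP and nucleolar genes; sequences are of the 8 highest outside chromosome I, for which none is shown. Alternatives were other flanks, any overlap, other lists, each replicate alone, merged loci and host strand. Scripts were tested on simulated data and run in Python 3.11.15 with pandas 2.3.3, scipy 1.17.1 and matplotlib 3.10.9.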

Additional observations from a re-analysis of the deposited data

How the results depend on the processing

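The count of 59 bound loci kept within 1.5 times with a flank of 500 bp, with any overlap of at least 1 bp, with 2 times as many pooled peaks and with overlapping loci merged. It was 56 without replicate 1 and 57 without replicate 2. Without a flank it was 12, because most summits lay outside the gene body, mainly before it and some after it. Among the strongest 921 IDR-thresholded peaks it was 23, and in the whole pooled list 154. Under the same 3 settings the share of same-strand intron loci was 2.67%, 5.33% and 44%, that of loci outside protein-coding genes 4.03%, 9.68% and 43.5%, and that of autosomal loci 3.83%, 7.35% and 47.9%. With 2 times as many pooled peaks the intron share was 19.3% and the autosomal share 26.8%. With hosts on either strand counted, the intron share was 30 of 177 (16.9%), beside 26 of 124 (21%) outside protein-coding genes. On X, 1 locus had a summit with a flank of 500 bp, 1 with any overlap and 1 with 2 times as many pooled peaks, and 4 had one in the whole pooled list; no X locus had one without either replicate. With a shorter PSE-like pattern, added after the data were seen (CGNAAC, then 7 or 8 bases, then TGTC), 27 of 38 loci were bound (71.1%). The share of PSE-like loci, 80.6%, was 29% without a flank, 45.2% among the strongest 921 peaks and 100% in the pooled list. The autosomal tRNA-like share, 38.7%, was 3.23%, 9.68% and 93.5% there, and 64.5% with 2 times as many pooled peaks. No paired analysis was possible because the series has 1 group. Depth is unknown, so loci without a summit are not shown to lack XND-1.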
